A study of Homo sapiens with 6 samples.

Results

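TNS4, TNS3, CRK, CRKL, BCAR1, PXN, PTK2, VCL, TLN1 and ZYX encode proteins of focal adhesions, and their mRNA levels were examined in HCT116 cells that had been transfected with a YY2 overexpression vector. These 10 genes were chosen by name out of the 50868 genes of the deposited table, with results for this same contrast already known, in which TNS4 was lower and CRK higher in the transfected cells. Their differences between the groups are therefore given as a description, without a p-value. All 10 passed the filter of a mean FPKM (counts per gene length and library size) of at least 1, as did 12015 genes in all.

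Focal adhesions are the sites at which integrins, the receptors for the extracellular matrix, are tied to the actin cytoskeleton. Talin binds the integrin tail and switches the receptor on, vinculin reinforces the link between talin and actin, and zyxin joins where the actin is under tension. Paxillin and the focal adhesion kinase FAK turn attachment into tyrosine phosphorylation, and phosphorylated p130Cas and paxillin bind the CRK adaptors, which lead on to small GTPases and cell movement. Tensins bind integrin tails as well, and TNS4 (also called CTEN) is a short tensin that lacks the actin-binding end of the other family members and is abundant in many colorectal cancers.

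HCT116 is a human colorectal cancer cell line. The cells had been transfected either with pcYY2, the vector for overexpression of the zinc finger transcription factor YY2, or with pcCon, the empty vector pcDNA3.1(+), and polyA RNA was sequenced from 3 samples of each. The comparison asks which genes respond to YY2 overexpression. The labels do not say that the 3 samples of a group were separate cultures, so the p-values measure only the spread between these samples, which may be technical. Between 15158360 and 29572882 reads were counted on genes per sample. YY2 itself stood at 2.22, 2.52 and 1.73 FPKM in pcCon samples 1 to 3 and at 11.6, 11.1 and 11.0 FPKM in pcYY2 samples 1 to 3, a log2 fold change of 2.39 ± 0.137 (SE) with an adjusted p of 0.00107 by edgeR's quasi-likelihood test, where reads from the plasmid and from the chromosomal gene cannot be told apart. The summed FPKM of 8 markers of colorectal epithelium was 315 to 329 in pcCon and 407 to 443 in pcYY2. Most of this came from KRT19, at 106 to 110 FPKM in pcCon and 152 to 166 FPKM in pcYY2, and KRT8, at 61.6 to 64.9 and 86.0 to 113 FPKM, while CLDN7 was lower in pcYY2, at 7.21 to 8.10 and 6.06 to 6.81 FPKM, and CLDN3 overlapped, at 6.24 to 7.80 and 5.33 to 6.40 FPKM. The part of these markers in the results was not tested. The summed FPKM was at most 2.73 in any sample for markers of fibroblasts, 0.988 for leukocytes and 0.214 for endothelial cells. In such bulk samples, fewer cells of a type and less RNA per cell cannot be told apart.

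A gene was taken as called when its adjusted p in edgeR's quasi-likelihood test over the 12015 genes was 0.05 or less. Of the 10 adhesion genes, 3 were called, namely CRK as higher and TNS4 and TNS3 as lower in pcYY2, whereas 9.37% of all tested genes were called, 4.52% as higher and 4.85% as lower. Since the genes were chosen on this contrast, nothing is read from that difference in share. For 6 of the 10, the FPKM of the groups did not overlap, 5 being lower and 1 higher in pcYY2, beside 35.8% of all tested genes. The median log2 fold change was -0.15 over the 10 genes and 0.0020 over all tested genes, and 9 of the 10 values lay below 0.

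**Figure D1:**
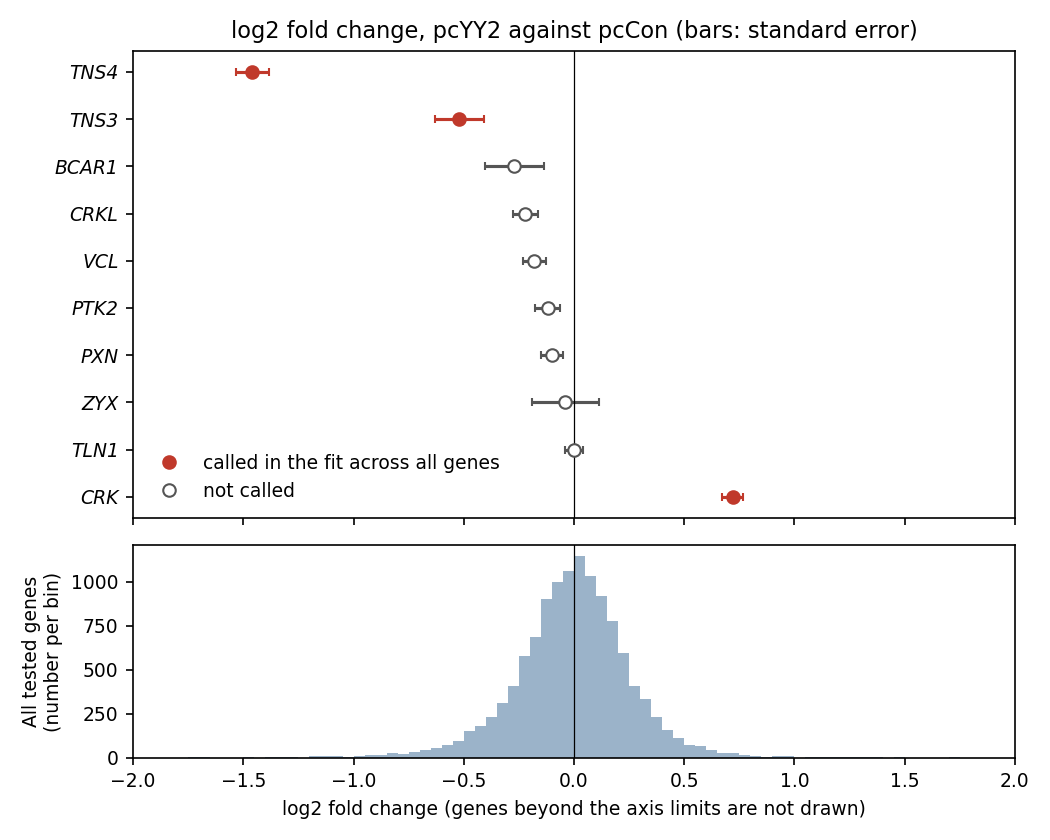
Upper panel, log2 fold change of each of the 10 genes in pcYY2 against pcCon (horizontal axis) with its SE as the bar, filled for called genes and open for the others, and lower panel, number of all tested genes per bin of log2 fold change on the same axis. TNS4 lies at -1.46 and CRK at 0.72, TNS3 lies at -0.52, and the other 7 genes lie between -0.27 and 0.

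TNS4 was the adhesion gene with the widest gap between the groups. Its level was 26.7, 23.7 and 22.3 FPKM in pcCon samples 1 to 3 and 8.54, 8.66 and 8.90 FPKM in pcYY2 samples 1 to 3. Every pcCon sample was above every pcYY2 sample, and the pcYY2 samples differed from each other by little, with a coefficient of variation of 2.11% against 9.23% in pcCon. The mean was 24.2 ± 2.24 FPKM in pcCon and 8.70 ± 0.184 FPKM in pcYY2 (SD, n = 3), with a log2 fold change of -1.46 ± 0.0754 (SE), which is 2.76-fold lower. It was counted on 682 to 2534 reads per sample. By the size of its difference, TNS4 stood at percentile 99.7 of the tested genes, and 7 called genes, itself included, were lower by at least as much. TNS4 (ENSG00000131746) lies on chromosome 17 of GRCh38, from 40475828 to 40501597 on the minus strand, and no other annotated gene overlaps it.

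TNS3, a full-length tensin with both the actin-binding and the integrin-binding ends, was expressed at a lower level. Its FPKM was 2.55, 2.06 and 2.17 in pcCon samples 1 to 3 and 1.40, 1.63 and 1.67 in pcYY2 samples 1 to 3. The groups did not overlap, but the lowest pcCon sample and the highest pcYY2 sample were close. The mean was 2.26 ± 0.258 FPKM in pcCon and 1.56 ± 0.147 FPKM in pcYY2 (SD, n = 3), with a log2 fold change of -0.52 ± 0.112 (SE). TNS3 was the called gene of the 10 nearest to the threshold. It was called in 3 of 13 other settings and not once any 1 of the 6 samples was left out, and its log2 fold change over these settings ran from -0.58 to -0.35. Of the remaining tensins, TNS2 differed by -0.24 on the log2 scale (adjusted p = 0.124 by edgeR's quasi-likelihood test). TNS1 was below the filter, at 0.885 ± 0.117 FPKM in pcCon and 0.725 ± 0.0767 FPKM in pcYY2.

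CRK, the founding SH2 and SH3 adaptor of its family, was the only one of the 10 genes with a higher level in pcYY2. Its FPKM was 15.0, 15.7 and 15.4 in pcCon samples 1 to 3 and 25.6, 24.4 and 25.4 in pcYY2 samples 1 to 3. All pcYY2 samples were above all pcCon samples, and the spread within each group was small beside the gap. The mean was 15.4 ± 0.331 FPKM in pcCon and 25.1 ± 0.676 FPKM in pcYY2 (SD, n = 3), with a log2 fold change of 0.72 ± 0.0468 (SE), a fold of 1.65. CRK stood at percentile 97.5 by size of difference, and 40 called genes, itself included, were higher by at least as much. CRK (ENSG00000167193) spans 1420689 to 1463162 of chromosome 17, also on the minus strand. TNS4 and CRK were both called in all 13 other settings, with log2 fold changes of -1.52 to -1.38 and of 0.67 to 0.75. The settings reuse the samples and the contrast on which the genes were chosen. They therefore show only how far the calls depend on the processing.

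CRKL, the close relative of CRK that binds many of the same phosphorylated partners, showed a small difference in the other direction. Its FPKM was 31.0, 32.7 and 33.0 in pcCon samples 1 to 3 and 26.6, 26.5 and 29.1 in pcYY2 samples 1 to 3. The groups did not overlap, yet CRKL was not called, and its log2 fold change of -0.22 ± 0.0559 (SE) was the nearest of the 10 outside the threshold. It was called in 4 of the 13 other settings, namely with upper quartile scaling, with DESeq2 and in both fits with limma.

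**Figure D2:**
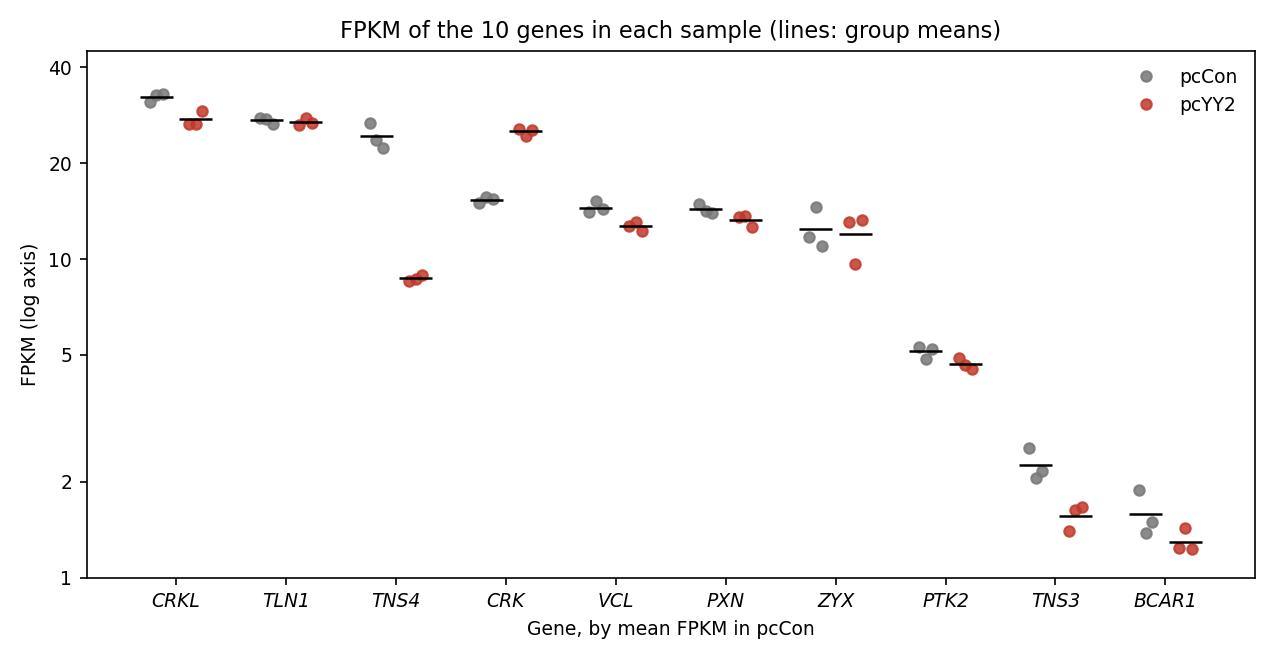
FPKM of each of the 10 genes (vertical axis, log scale) in the 3 pcCon samples (grey points) and the 3 pcYY2 samples (red points), with lines at the group means and genes ordered by their mean in pcCon. The groups are fully apart for TNS4, at 22.3 FPKM or more in pcCon and 8.90 FPKM or less in pcYY2, and for CRK, while ZYX overlaps between the groups.

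Within both pairs of relatives, the balance of the members differed between the groups. Ratios within a sample do not depend on the scaling between samples, but they use the contrast on which the genes were chosen and are a description. The ratio of TNS4 to TNS3, both in FPKM, was 10.5, 11.5 and 10.3 in pcCon samples 1 to 3 and 6.12, 5.32 and 5.34 in pcYY2 samples 1 to 3. The ratio of CRK to CRKL was 0.485, 0.479 and 0.467 in pcCon samples 1 to 3 and 0.966, 0.921 and 0.872 in pcYY2 samples 1 to 3. In neither pair did the ratios of the groups overlap, and on the log2 scale the group means differed by -0.95 for the tensins and by 0.95 for the CRK adaptors. The summed level of TNS4 and TNS3 was 26.5 ± 2.46 FPKM in pcCon and 10.3 ± 0.317 FPKM in pcYY2 (SD, n = 3). For CRK and CRKL together it was 47.6 ± 1.41 FPKM in pcCon and 52.5 ± 1.87 FPKM in pcYY2. CRK held 31.8% to 32.7% of its pair's FPKM in pcCon and 46.6% to 49.1% in pcYY2. These shares and the side of 1 on which a ratio lies depend on the gene lengths, since with the merged exons of GENCODE 44 CRK stood above CRKL in pcYY2, at 39.9 against 35.4 FPKM.

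**Figure D3:**
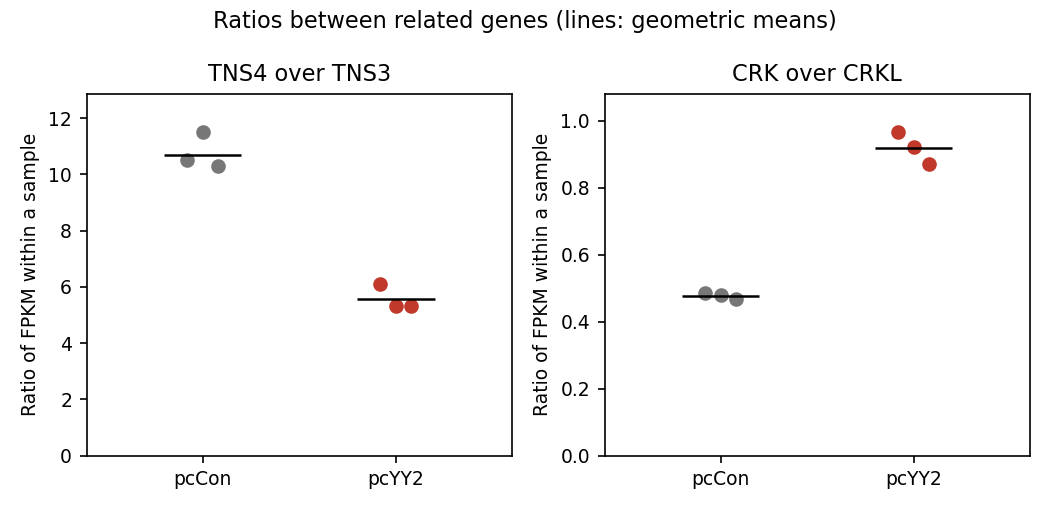
Ratio of FPKM within each sample (vertical axis, from 0) for TNS4 over TNS3 and for CRK over CRKL, by group, where each point is 1 sample and the lines are geometric means. The TNS4 over TNS3 ratio is at least 10.3 in pcCon and at most 6.12 in pcYY2, and the CRK over CRKL ratio is at most 0.485 in pcCon and at least 0.872 in pcYY2.

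The promoters of CRK and TNS3 are shown because they hold the same short match to the core of the motif bound by the YY1 and YY2 family, which is CCGCCAT, or ATGGCGG on the other strand. The letters CCGCCAT were added to the search after the CRK promoter had been seen. Both sequences are the 250 bases before an annotated start in RefSeq (GRCh38.p14), read 5′ to 3′ on the minus strand, on which both genes lie, with the match in capitals. They are chr17:1456233-1456482 for CRK and chr7:47537473-47537722 for TNS3, which is 1 of the TNS3 starts. Each lies inside the span of its gene but overlaps no exon of that gene in GENCODE 44. Exons of other genes were not checked.
CRK: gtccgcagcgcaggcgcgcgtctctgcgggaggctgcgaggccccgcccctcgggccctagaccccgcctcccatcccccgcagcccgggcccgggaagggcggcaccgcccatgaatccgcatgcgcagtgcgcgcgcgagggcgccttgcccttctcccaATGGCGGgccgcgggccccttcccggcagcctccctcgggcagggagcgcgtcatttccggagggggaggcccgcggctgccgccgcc
TNS3: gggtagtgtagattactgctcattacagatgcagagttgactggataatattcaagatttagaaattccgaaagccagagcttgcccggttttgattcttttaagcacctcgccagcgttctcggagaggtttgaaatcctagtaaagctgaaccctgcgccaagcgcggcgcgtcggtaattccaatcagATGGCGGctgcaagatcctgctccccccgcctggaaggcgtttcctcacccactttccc
The match lies 88 to 82 bases before the CRK start and 59 to 53 bases before the TNS3 start. Searched on both strands, CCGCCAT is found in 2.88% of 35116 promoters of the same length. The GC content is 78.8% for the CRK promoter and 51.2% for that of TNS3, with a median of 58.0% over all promoters. CRK was higher and TNS3 lower in pcYY2, where TNS3 was called in only 3 of 13 other settings. Any part of the match in these differences was not tested.

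Among 15 promoters of 8 of the genes, the other letters searched were rare. No promoter of TNS4 or PTK2 was searched for any of the letters, so nothing is said about them. CCATNTT, another form of the YY core, was found in 1 PXN promoter and in 11.6% of all promoters. The AP-1 site TGANTCA was found in 1 BCAR1 promoter and in 6.57% of all promoters. The CArG box, the site of serum response factor, was found in none of the 15 and in 1.16% of all promoters. No overlap between these letters was required or removed, and a match or its lack is only a statement about letters in this window.

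BCAR1 encodes p130Cas, the docking protein whose substrate domain binds CRK once FAK and Src have phosphorylated it. Its FPKM was 1.89, 1.38 and 1.50 in pcCon samples 1 to 3 and 1.24, 1.43 and 1.23 in pcYY2 samples 1 to 3. The groups overlapped, since pcYY2 sample 2 was above pcCon sample 2, and the log2 fold change was -0.27 ± 0.132 (SE). PXN encodes paxillin, the scaffold that recruits FAK and CRK. PXN stood at 14.9, 14.1 and 13.9 FPKM in pcCon samples 1 to 3 and at 13.5, 13.6 and 12.6 FPKM in pcYY2 samples 1 to 3, with a log2 fold change of -0.10 ± 0.0516 (SE). The PXN groups did not overlap, but the lowest pcCon sample was only just above the highest pcYY2 sample. PTK2 encodes FAK itself. PTK2 stood at 5.31, 4.86 and 5.22 FPKM in pcCon samples 1 to 3 and at 4.90, 4.66 and 4.51 FPKM in pcYY2 samples 1 to 3, where pcYY2 sample 1 was above pcCon sample 2. Its log2 fold change was -0.12 ± 0.0571 (SE), and none of BCAR1, PXN and PTK2 was called.

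The 3 genes that connect integrins and actin were not called either. VCL, for vinculin, stood at 14.0, 15.2 and 14.3 FPKM in pcCon samples 1 to 3 and at 12.7, 13.1 and 12.2 FPKM in pcYY2 samples 1 to 3, without overlap, and its log2 fold change was -0.18 ± 0.0526 (SE). TLN1, for talin, showed the smallest difference of the 10, with 27.6, 27.5 and 26.5 FPKM in pcCon samples 1 to 3 and 26.3, 27.7 and 26.8 FPKM in pcYY2 samples 1 to 3. Its groups overlapped throughout, with means of 27.2 ± 0.608 and 26.9 ± 0.736 FPKM (SD, n = 3) and a fold of 0.999. ZYX, for zyxin, varied widely within both groups, at 11.7, 14.6 and 11.0 FPKM in pcCon samples 1 to 3 and 13.1, 9.63 and 13.3 FPKM in pcYY2 samples 1 to 3. Its coefficient of variation was 15.4% in pcCon and 17.1% in pcYY2, beside medians of 6.35% and 7.54% over all tested genes. Its log2 fold change was -0.04 ± 0.152 (SE), and it became 0.09 without sample 2 of either group. The counting is not stated to use the strand, and exons of VCL share 1109 bases with AP3M1, those of PXN 1769 bases with PXN-AS1 and those of ZYX 82 bases with EPHA1, all on the opposite strand, while BCAR1 shares 788 bases with a gene on its own strand, so reads there cannot be assigned with certainty.

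In pcCon, the levels in FPKM ran in the order CRKL at 32.2, TLN1 at 27.2, TNS4 at 24.2, CRK at 15.4, VCL at 14.5, PXN at 14.3, ZYX at 12.5, PTK2 at 5.13, TNS3 at 2.26 and BCAR1 at 1.59. The sample values overlapped between the neighbours TLN1 and TNS4, CRK and VCL, VCL and PXN, and PXN and ZYX, so the order within these pairs is not resolved. FPKM depends on the gene length used, and the lengths behind the deposited values were longer than the merged exons of GENCODE 44, for BCAR1 23666 against 9199 bases. With the GENCODE lengths PXN came second at 33.4 FPKM and BCAR1, at 4.09 FPKM, came above TNS3, at 2.93 FPKM. ZYX then came at rank 4, at 27.7 FPKM, above TNS4 at rank 5, at 25.9 FPKM, and CRK at rank 6, at 24.4 FPKM. Differences between the groups within a gene do not depend on its length.

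Beyond the 10 genes, 147 further adhesion genes were listed by role, of which 93 passed the filter. Of these, 10 were called, 3 as higher and 7 as lower in pcYY2. This is 10.8% of those tested, close to the 9.37% called of all tested genes. Their median log2 fold change was -0.01. The adjusted p-values that follow are from edgeR's quasi-likelihood test over all tested genes. Of 10 tested integrin subunits, the receptors themselves, 1 was called. ITGB5, which pairs with the alpha-V chain to bind vitronectin, fell from 7.07 ± 0.701 to 5.20 ± 0.370 FPKM (SD, n = 3), a log2 fold change of -0.42 ± 0.0916 (SE) with an adjusted p of 0.0364, and this call was lost when any 1 sample was left out (adjusted p of up to 0.103 over the 13 other settings). The most abundant integrin subunits among those not called were ITGB1, the partner of most alpha chains, at 37.0 ± 5.85 FPKM in pcCon and 36.7 ± 3.38 FPKM in pcYY2, and ITGB4, the hemidesmosome chain, at a log2 fold change of -0.20 with an adjusted p of 0.107. No gene was called of the 15 tested for integrin activation and the ILK complex. Of these, FERMT1, the epithelial kindlin, had a log2 fold change of -0.04 and ILK one of 0.09. LIMS1 (PINCH, of the ILK complex), named here after its values were seen, had a log2 fold change of -1.02 and was not called. Of its pcCon samples, 1 stood at 2.62 FPKM and the others at 6.13 and 6.27 FPKM, and the groups overlapped. It has near-identical copies in the genome, so its counts are uncertain.

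**Figure D4:**
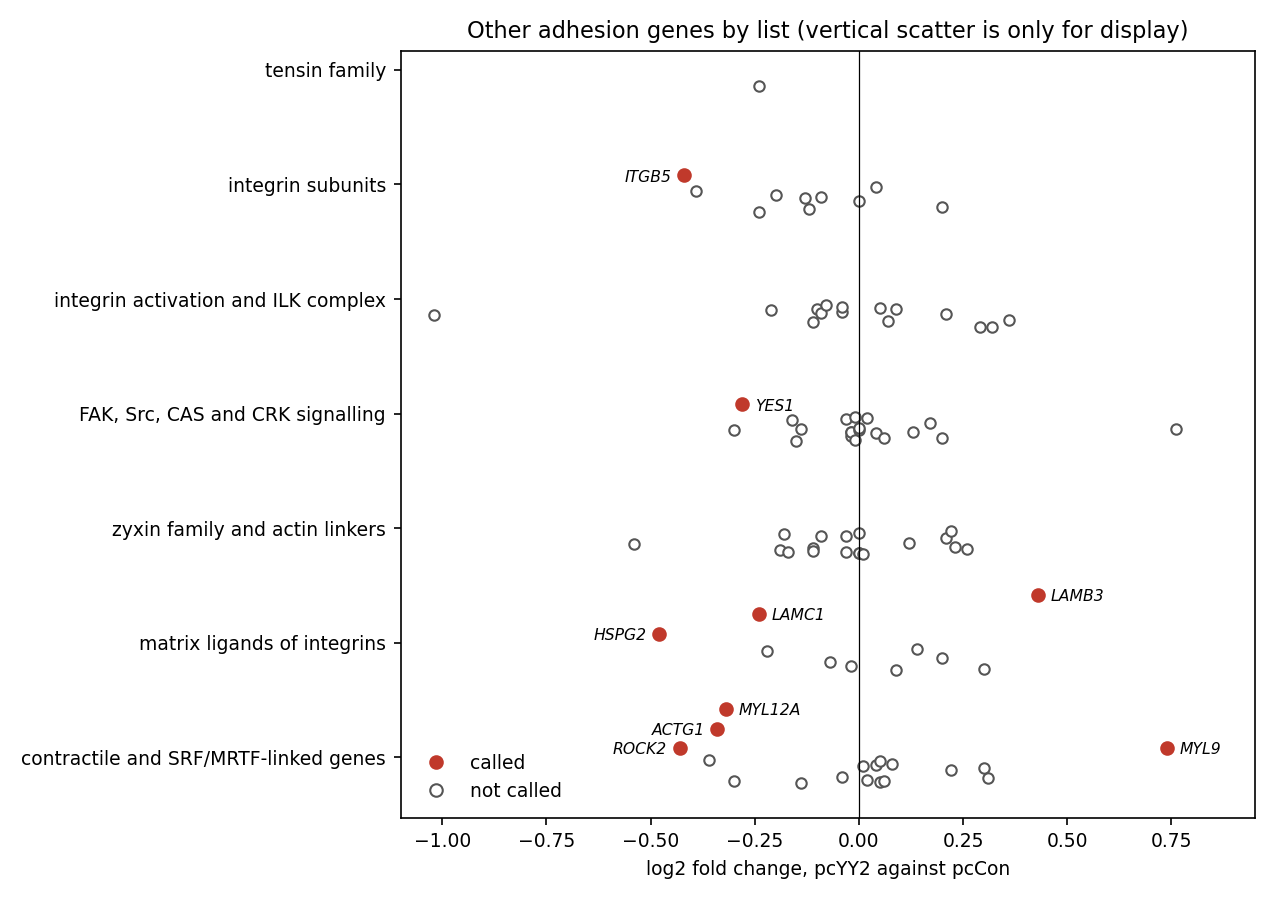
Log2 fold change of the tested genes reported here from the 7 lists of other adhesion genes (horizontal axis; vertical scatter within a list is only for display), with called genes filled and named. The matrix ligands hold called genes on both sides of 0, among them HSPG2 at -0.48 and LAMB3 at 0.43.

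Around FAK, Src, p130Cas and CRK, 1 of 20 tested signalling genes was called. YES1, a kinase of the Src family, fell from 22.5 ± 0.314 to 18.4 ± 0.964 FPKM (SD, n = 3), a log2 fold change of -0.28 ± 0.0509 (SE) with an adjusted p of 0.0240. It was called in 7 of the 13 other settings, where its adjusted p reached 0.0894. The phosphatase PTPN11 had a log2 fold change of 0.06 and the GTPase RAC1, which acts after CRK and DOCK1, one of -0.02. None of the 18 tested genes of the zyxin family and the actin linkers was called, and 8 log2 fold changes lay above 0 and 10 below. The crosslinkers ACTN4 and FLNA both had log2 fold changes of 0.00 after rounding, with adjusted p-values of 0.984 and 0.969. AJUBA, of the zyxin family and named here after its values were seen, was just outside the threshold. Its log2 fold change was -0.54 ± 0.137 (SE, adjusted p = 0.0531), and its groups did not overlap. Other listed genes, also named after their values were seen, were not called but went the other way. RAP1B and DOCK1 had log2 fold changes of 0.32 and 0.17 without overlap of the groups (adjusted p = 0.0517 and 0.0597 by edgeR's quasi-likelihood test). GRB2 had one of 0.76, and its groups overlapped.

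The matrix ligands of integrins held 4 called genes among 11 tested, and they went both ways. This was 36.4%, the highest share of the lists, beside 9.37% of all tested genes. The lists were chosen with earlier results of these data known, so nothing is read from that difference in share. LAMB3, a laminin beta chain of epithelial basement membranes, stood at 4.74, 4.05 and 4.49 FPKM in pcCon samples 1 to 3 and at 5.35, 6.17 and 6.18 FPKM in pcYY2 samples 1 to 3. All pcYY2 samples were above all pcCon samples, and it rose with a log2 fold change of 0.43 ± 0.0943 (SE, adjusted p = 0.0374). LAMA3, a laminin alpha chain of epithelia, was below the filter, at 0.669 ± 0.0388 FPKM in pcCon and 1.19 ± 0.149 FPKM in pcYY2. It was looked at after the values of LAMB3 were seen. With a filter of 0.1 FPKM, under which 4.81% of 18877 genes were called, it had a log2 fold change of 0.87 ± 0.121 (SE, adjusted p = 0.0117). LAMC1, the gamma chain of most other laminins, fell from 16.2 ± 0.486 to 13.6 ± 0.496 FPKM (adjusted p = 0.0342). HSPG2, for the basement membrane proteoglycan perlecan, fell from 4.29 ± 0.226 to 3.04 ± 0.130 FPKM (adjusted p = 0.00916). Over the 13 other settings, HSPG2 was called in 12, LAMB3 in 7 and LAMC1 in 4, the last not without any 1 sample. LAMA5 and AGRN had log2 fold changes of 0.14 and 0.09 and were not called.

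Among contractile genes and genes linked to serum response factor, 4 of 18 tested were called. This was 22.2%, beside 9.37% of all tested genes, and as for the matrix ligands nothing is read from that difference in share. MYL9, a regulatory light chain of non-muscle and smooth muscle myosin, stood at 6.89, 6.63 and 6.81 FPKM in pcCon samples 1 to 3 and at 10.7, 11.4 and 11.4 FPKM in pcYY2 samples 1 to 3. It rose in every pcYY2 sample relative to every pcCon sample, with a log2 fold change of 0.74 ± 0.0652 (SE, adjusted p = 0.00296). ROCK2, a kinase that activates myosin, fell from 18.6 ± 0.828 to 13.7 ± 1.04 FPKM (adjusted p = 0.0148). MYL12A, another myosin light chain, fell from 23.8 ± 0.538 to 18.9 ± 0.465 FPKM (adjusted p = 0.0136), and ACTG1, for gamma-actin, fell from 102 ± 5.07 to 79.3 ± 6.08 FPKM (adjusted p = 0.0257). Both may share reads with near-identical copies, which was not examined, so their counts are uncertain. MYL9 was called in all 13 other settings, ROCK2 and MYL12A in 9 each and ACTG1 in 7. MYL12B, the near copy of MYL12A, had a log2 fold change of 0.05 and RHOA, the GTPase before ROCK2, one of 0.04. With the filter of 0.1 FPKM, 4.81% of 18877 genes were called. Of 28 listed genes that only this filter admitted, 3 were called, and nothing is read from this count. They were LAMA3, the smooth muscle marker TAGLN at a log2 fold change of 1.64 ± 0.139 (SE) and the paxillin relative TGFB1I1 at 0.65 ± 0.123 (SE). TAGLN stood at only 0.351 ± 0.0320 FPKM in pcCon and 1.07 ± 0.0797 FPKM in pcYY2. ACTA2 and TPM1, listed with TAGLN, were not called with the filter of 0.1 FPKM, at log2 fold changes of 0.23 and -0.37. CALD1, also listed there, had one of 0.01 with the main filter and was not called. CNN1 had at most 5 counts per sample.

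The genes whose profiles over the 6 samples were nearest to that of TNS4 were EGR1, ASNS and PHGDH. Nearness was the root mean square difference of log2 CPM after each gene was centred on its own mean, and it was 0.139 for EGR1, an immediate early transcription factor, 0.172 for ASNS, the asparagine synthetase, and 0.179 for PHGDH, the first enzyme of serine synthesis. All were lower in pcYY2, with log2 fold changes of -1.71, -1.73 and -1.19. TNS3 came at rank 223 by this measure, at 0.480. The genes nearest to CRK were ATP6AP1, an accessory subunit of the vacuolar proton pump, at 0.0407, TROAP, a spindle protein, at 0.0459 and SCG2, a secretogranin, at 0.0507. All were higher in pcYY2, with log2 fold changes of 0.68, 0.69 and 0.75, while CRKL came at rank 9132. With 6 samples in 2 groups, this measure mostly orders genes by their difference between the groups.

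**Figure D5:**
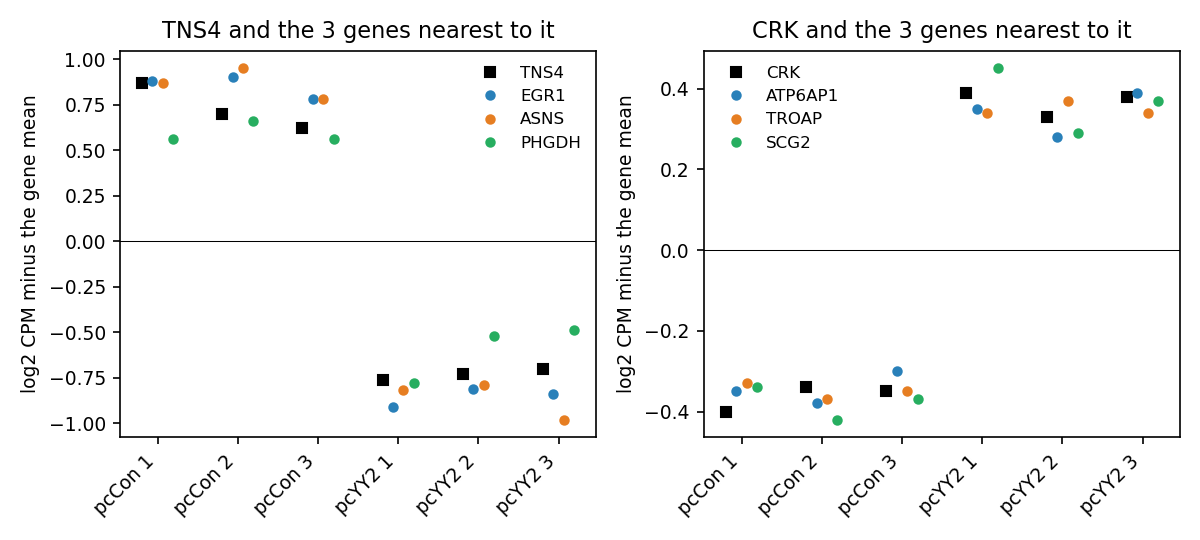
Log2 CPM of TNS4 and of CRK, each with its 3 nearest genes, in the 6 samples after subtraction of the gene mean (vertical axis, log2 scale); each point is 1 sample and gene. The genes nearest to TNS4 lie above 0 in every pcCon sample and below 0 in every pcYY2 sample, and those nearest to CRK lie the other way round.

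The tested genes nearest to TNS4 and CRK within 100 kb, at most 2 on each side, were looked at after the values of TNS4 and CRK were seen. The transcript RP11-58O9.2, which lies 539 bases from TNS4 on the same strand, stood at 3.16 ± 0.690 FPKM in pcCon and 1.57 ± 0.471 FPKM in pcYY2 (SD, n = 3), a log2 fold change of -0.97 ± 0.266 (SE), and was not called (adjusted p = 0.0653). TOP2A, the topoisomerase of dividing cells, 57878 bases from TNS4, rose from 66.8 ± 1.94 to 79.9 ± 3.29 FPKM (adjusted p = 0.0154). Beside CRK, YWHAE, which encodes a phosphoserine-binding adaptor, differed by 0.17 on the log2 scale (adjusted p = 0.0450) and was called as higher. MYO1C, a myosin gene only 936 bases from CRK, differed by -0.11 (adjusted p = 0.180), and INPP5K, an inositol phosphatase gene, by -0.21 (adjusted p = 0.252).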

How the data were processed

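The mRNA of 3 pcCon and 3 pcYY2 samples of HCT116 cells, grouped by the sample labels, was sequenced. Per the methods, cleaned reads were mapped by the authors to GRCh38 using Tophat 2.1.0, and Cufflinks 2.1.1 gave FPKM. The submitters' processing notes also name Bowtie2 and HTSeq. The authors deposited counts, as whole numbers without normalization, and FPKM, scaled to a fixed length per gene and to the sample's total count, with a largest deviation of 0.00147% over 12107 well counted genes. Whether counting used the strand is not given in the sources used here. The output of Cuffdiff was not used, and 0 columns were left without a sample. Of 50868 genes, 23340 had no count.

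Counts of all 6 samples were fitted with edgeR 4.0.16 in R 4.3.3 (quasi-likelihood test, TMM scaling, mean FPKM of at least 1, Benjamini-Hochberg adjustment, threshold 0.05). The SE was obtained as the log2 fold change over the root of the F statistic. At 15158360 to 29572882 counts per sample, the 10 genes had 349 to 9644 counts per sample. The mean correlation of deviations from the group means was -0.0139 for same-numbered samples and 0.00694 for the remaining pairs, so the numbers were not taken as pairs. The members and lists were chosen with earlier results of these data known. Named were all 10 genes, YY2, per list up to 4 called genes with the smallest p and the 2 most abundant others, and the 3 genes nearest to TNS4 and to CRK. Alternatives were other filters and scaling, DESeq2 1.42.0, limma 3.58.1 on log2(FPKM + 1) or log2(FPKM + 0.1), a replicate block, a threshold of 0.01, leaving out each sample and, added after seeing the data, other gene lengths. The tests were tried on simulated data. A tested gene that is included in the counts is not reported here by name. Promoters came from RefSeq.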

Additional observations from a re-analysis of the deposited data

How the results depend on the processing

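Over all tested genes, 543 were called higher and 583 lower. With the replicate block these became 51 and 50, and 1 other adhesion gene, MYL9, was called instead of 10. At a threshold of 0.01 they became 91 and 100, with 2 other adhesion genes. Leaving out each sample gave 138 to 402 higher, 147 to 419 lower and 4 to 10 other adhesion genes, and the median log2 fold change of the 10 chosen genes ran from -0.17 to -0.11. With the block, TNS4 and CRK were called and TNS3 was not. TNS3 was not called either with the 0.1 FPKM filter, with limma or without any 1 sample. The cause was not tested.

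Signs turned among values near 0. TLN1 became 0.02 with the 0.1 FPKM filter, 0.01 without a filter and 0.00 with DESeq2. FLNA became 0.02 with the 0.1 FPKM filter and 0.01 without one, and RAC1 became 0.00 with the former. ACTN4 became -0.02 with upper quartile scaling, -0.01 in both limma fits and 0.00 with the block, and ITGB1 became -0.02 with upper quartile scaling and 0.00 in both limma fits. Without 1 sample at a time, values on both sides of 0 were found for FLNA (-0.04 to 0.03), RAC1 (-0.04 to 0.00), TLN1 (-0.03 to 0.02), ZYX (-0.13 to 0.09), ACTN4 (-0.05 to 0.07), ITGB1 (-0.12 to 0.07) and FERMT1 (-0.26 to 0.06). With GENCODE lengths, the log2 level ratio of TNS3 to BCAR1 in pcCon went from 0.51 to -0.47 and that of CRK to CRKL in pcYY2 from -0.12 to 0.18. The median log2 fold change of all tested genes lay between -0.016 and 0.024 over the settings.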
